A study of Mus musculus with 16 samples.

Results

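The heat shock chaperones are proteins that hold, fold or refold other proteins. The genes described here are 9 of the 49315 genes counted in sorted mouse neutrophils, chosen by symbol and found in the count files through their Ensembl identifiers. They are Hspa1a and Hspa1b, the stress-inducible HSP70 proteins, Hspa8, the constitutive HSP70 (HSC70), Dnajb1, a J-domain protein of the HSP40 class that delivers clients to HSP70, Hsph1, an HSP110 protein that exchanges the nucleotide on HSP70, Hsp90aa1 and Hsp90ab1, the cytosolic HSP90 proteins, and Hspd1 and Hspe1, the mitochondrial chaperonin HSP60 and its lid HSP10. All 9 genes were found, and all 9 passed the filter on low counts in every comparison.

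The neutrophils came from the blood or the lung of 8 to 12 week old male mice, either wild type (WT) or labelled knockout for integrin αD (αD KO), the CD11d subunit of αDβ2 that the gene Itgad encodes. Mice were untreated, which is called the baseline or 0h, or had undergone cecal ligation and puncture (CLP), a surgical model of abdominal sepsis, 12 hours earlier. Cells were sorted as Ly6G+/CD11b+/CD45.2+, and strain is not given in the sources used here. Genotype, tissue and time made 8 groups of 2 samples, and 3 count files per group made 24 libraries. Sample 1 of each group had 2 count files, called libraries 1a and 1b here, and sample 2 had 1 file, called library 2. No source says which libraries came from separate mice, so the p-values below measure only the spread between these libraries, which may in part be technical.

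Cells that meet heat, oxidants or other protein-damaging stress activate the transcription factor HSF1, which binds heat shock elements, short inverted repeats of the letters GAA, in the promoters of chaperone genes. HSP70 with its J-domain partners then binds unfolded chains, HSP110 resets it, HSP90 takes over a set of nearly folded clients, and HSP60 with HSP10 folds proteins inside mitochondria. In neutrophils, short-lived cells packed with granule proteins, Hspa8 and Hsp90ab1 act as housekeeping chaperones, while Hspa1a and Hspa1b are known to respond to stress, isolation of cells from tissue included.

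The promoters of the inducible HSP70 genes and of the mitochondrial chaperonin genes are shown because they carry the letters that HSF1 reads. Sequences are from the RefSeq promoter table on GRCm38.p6, which held 6 of the 9 genes; Hspa8, Hsp90aa1 and Hsp90ab1 are named only. Hspa1a (chr17:34969190-34972156, minus strand) and Hspa1b (chr17:34956436-34959238, minus strand) are neighbouring genes on chromosome 17, and the 250 bases before each start, at chr17:34972157-34972406 and chr17:34959239-34959488, are printed 5′ to 3′ on the minus strand with the match to GAANNTTC in capitals.
Hspa1a: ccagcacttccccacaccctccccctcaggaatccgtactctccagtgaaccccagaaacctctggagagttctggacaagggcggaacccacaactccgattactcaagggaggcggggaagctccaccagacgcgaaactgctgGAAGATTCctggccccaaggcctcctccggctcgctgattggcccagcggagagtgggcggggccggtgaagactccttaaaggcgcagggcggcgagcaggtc
Hspa1b: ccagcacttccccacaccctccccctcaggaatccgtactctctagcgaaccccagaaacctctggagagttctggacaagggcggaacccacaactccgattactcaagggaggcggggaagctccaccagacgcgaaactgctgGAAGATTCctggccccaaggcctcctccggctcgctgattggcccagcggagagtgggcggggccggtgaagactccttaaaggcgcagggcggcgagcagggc

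Counted from 1 at the first base printed, the stretches differed from Hspa1a to Hspa1b by C44T, T47C and T249G, and 247 of 250 bases (98.8%) were identical. The transcripts were close as well: 38.1% of the 150-base windows of the Hspa1a transcript also occurred in the Hspa1b transcript, and 40.5% of those of Hspa1b in Hspa1a. The study counted only reads that map to a single place, so read pairs that lie wholly in such windows would be left out of both genes. Reads were sequenced in pairs, and a pair with 1 mate in a stretch that the other gene lacks may still map to a single place. The shares above are of single windows, not of pairs. The level of each gene is therefore uncertain, and the sum of both, which does not restore reads that were left out, was tested too. Hspa1a is also overlapped on the opposite strand by Gm20481 (chr17:34969912-34972136), which had 0 counts in all 24 libraries, and reads of the 2 genes cannot be told apart without strand.

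The Hspe1 (chr1:55088132-55091307, plus strand) and Hspd1 (chr1:55077835-55088243, minus strand) genes lie head to head and overlap over chr1:55088132-55088243. Reads there likewise cannot be assigned to a gene without strand, and the strand setting of the counting is not given in the sources used here. RefSeq places the start of Hspe1 at chr1:55088148 and those of Hspd1 at chr1:55087932 and chr1:55088243. At chr1:55088055-55088084 on the plus strand, before the Hspe1 start and before the first of these Hspd1 starts, stands a run of heat shock element repeats, in capitals. The Hspd1 window of the other start held none of the heat shock element letters. The Hsph1 promoter (gene chr5:149614287-149636376, minus strand) holds a TTCNNGAA match, in capitals, at chr5:149636351-149636380 on the minus strand. This match lies inside the gene as annotated and before the RefSeq starts at chr5:149636336 and chr5:149636315, and after both of these starts stands another match within the longer form described next.
Hspe1/Hspd1: tccgTTCTAGAACCTTCCGGAAggccccgc
Hsph1: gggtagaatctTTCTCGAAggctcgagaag

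Over 32851 RefSeq windows of 300 bases (250 before and 50 after a start), searched on both strands, GAANNTTC occurred in 7.86%, TTCNNGAA in 8.52%, and GAANNTTC followed directly by NNGAA, which contains both shorter forms, in 0.603%. The Dnajb1 windows (gene chr8:83608193-83612653, plus strand) held none of these letters. A match is a description of the letters only.

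Before the values, 3 features of the libraries need stating. Itgad, the targeted gene, was at 12.5 to 102 CPM (CPM being counts relative to the TMM-scaled library size) in the 12 libraries labelled αD KO and at 0.0583 to 3.66 CPM in the 12 WT libraries, so it was higher where the label says knockout. Groups are therefore called by their labels throughout, and no direction between genotypes is more than a direction between labels. Along the axis of the 1340 genes called between WT lung at 12 hours and at baseline, on which the WT baseline mean is at 0 and the WT 12-hour mean at 1 (a WT library being left out of its own mean), library 2 of the labelled KO lung at baseline stood at 1.03 and libraries 1a and 2 of the labelled KO lung at 12 hours at 0.0994 and 0.188. These 3 libraries lay nearer to the other time than to their own label, and values without them are given beside the main results that use labelled KO lung. Library 2 of the labelled KO blood at baseline held 325 CPM over 9 T and NK cell markers, against 7.61 to 29.6 CPM in the other 23 libraries.

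Markers of the neutrophil label were present in every library: Ly6g was at 18.5 to 467 CPM, S100a8 at 8903 to 97769 CPM and Csf3r at 886 to 13801 CPM. The 12 neutrophil markers summed to 29583 to 332287 CPM. Their levels moved with time and not all in 1 direction. In WT lung Ly6g went from 35.1 ± 16.4 CPM at baseline to 283 ± 180 CPM at 12 hours (n = 3). In WT blood Csf3r went from 8874 ± 3915 to 1692 ± 818 CPM (n = 3). Total counts ran from 5753476 to 29984954. The 8 libraries 1b detected 29162 to 38844 genes and the other 16 libraries 17132 to 32666, which touches the scaling of the levels, as shown at the end.

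Hspa8 was the most abundant of the chaperones and Hsph1 the least, and the members together made 0.0462 to 0.178% of the counts of a library. Per kilobase of the length in the files and averaged over the 24 libraries, Hspa8 was at 112 CPM, Hsp90ab1 at 34.4, Dnajb1 at 31.5, Hsp90aa1 at 15.4, Hspd1 at 6.17, the inducible Hspa1b at 3.79, Hspa1a at 2.46, Hspe1 at 1.85 and Hsph1 at 0.251. The constitutive HSP70 and HSP90 genes thus stood above the inducible HSP70 genes in sorted neutrophils. All CPM below are per gene, not per kilobase.

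**Figure D1:**
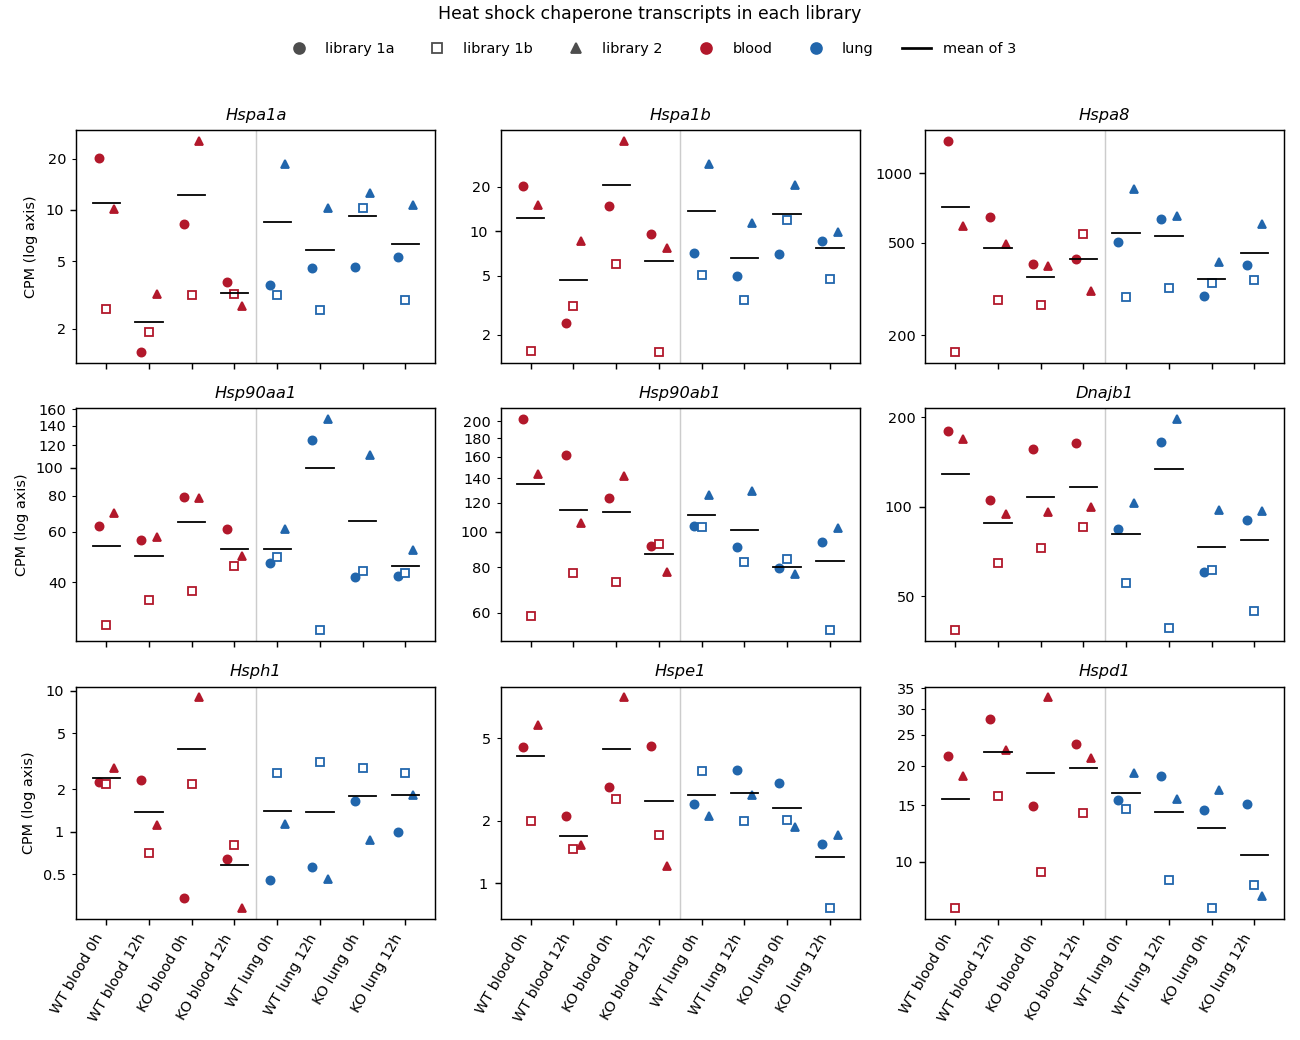
CPM (log axis) of each chaperone gene in the 24 libraries, by group; circles, open squares and triangles are libraries 1a, 1b and 2, red is blood and blue is lung, and the line is the mean of 3. Hspa1a reached its lowest values in WT blood at 12 hours (1.46 to 3.20 CPM), and the spread within a group was often as wide as the distance between groups.

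The order of the 8 groups was not firm for any member: ranked by mean, none of the 7 pairs of neighbouring groups stood apart by more than their SDs in any of the 9 genes. The lowest and highest library differed 3.78-fold for Hsp90ab1, 4.59-fold for Hspd1, 5.12-fold for Dnajb1, 5.45-fold for Hsp90aa1, 8.19-fold for Hspa8, 10.4-fold for Hspe1, 17.4-fold for Hspa1a, 26.9-fold for Hspa1b and 31.6-fold for Hsph1. Hsph1 had 4 to 244 counts per library, while Hspa8 had 1864 to 38084.

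Lung neutrophils at 12 hours after CLP held more Hspa1a than blood neutrophils on average, in WT and in libraries labelled KO, without passing the test. Under TMM the direction in the labelled KO rested on lung libraries 1a and 2, which stood apart: without them the fitted value was -0.0099. Under the 3 other scalings described at the end, lung library 1b also lay above every blood library. WT lung libraries 1a, 1b and 2 were at 4.58, 2.56 and 10.2 CPM, and WT blood libraries at 1.46, 1.91 and 3.20 CPM. The WT lung values lay above the blood values but for library 1b, which lay under the highest blood library, and each of the 3 lay above the blood library of its own number. Libraries of the labelled KO were at 5.30, 2.96 and 10.6 CPM in lung and at 3.78, 3.22 and 2.71 CPM in blood, with the same library 1b overlapping. Called here means a Benjamini-Hochberg adjusted p below 0.05 over all genes tested and an absolute log2 fold change above 1, by edgeR's quasi-likelihood test unless DESeq2 is named. The fitted log2 difference of Hspa1a was 1.42 (SE 0.56, adjusted p 0.243) in WT and 1.09 (SE 0.52, adjusted p 0.253) in the labelled KO. With both genotypes and genotype as a term it was 1.27 (SE 0.40, adjusted p 0.0828, 6 libraries per tissue), and DESeq2 called it at 1.33 (adjusted p 0.0118).

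None of the 9 members was called by edgeR at 12 hours in lung against blood. The background was 0.0442% of 13590 genes called in WT, 0.0548% of 14592 in the labelled KO and 4.45% of 18236 with both genotypes, and DESeq2 called 7.23% of 12123, 7.35% of 17161 and 8.89% of 21193 in the same order. DESeq2 called no member within a genotype and Hspa1a alone with both. An unadjusted p below 0.05 was reached by 1 member in WT (18.1% of all genes), 1 in the labelled KO (22.2%) and 2 with both genotypes (21.5%). Of the 9 members, 7 had a fitted value above 0 in WT (median 0.55, against 0.03 over all genes), 6 in the labelled KO (median 0.09, against 0.07) and 7 with both genotypes (median 0.23, against 0.26), while 48.9%, 47.7% and 39.9% of all genes were below 0. In the fit over both genotypes the median of the members was thus close to that of all genes.

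Hspd1 pointed the other way. It was at 18.5, 8.73 and 15.7 CPM in WT lung and 27.9, 16.01 and 22.3 CPM in WT blood, and at 15.1, 8.46 and 7.78 CPM in the labelled KO lung and 23.4, 14.2 and 21.1 CPM in its blood. Each lung library lay below the blood library of its own number in both genotypes, while the ranges overlapped under TMM. With both genotypes the fitted difference was -0.65 (SE 0.25, adjusted p 0.148 by edgeR), short of the threshold.

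Hsph1, with 4 to 46 counts per library at 12 hours, was at 0.993, 2.61 and 1.82 CPM in labelled KO lung and at 0.642, 0.805 and 0.286 CPM in its blood. These libraries did not overlap, as was the case for 10.3% of genes in that direction, and the fitted difference was 1.88 (SE 0.77, adjusted p 0.205 by edgeR). In WT the lung libraries were at 0.564, 3.12 and 0.464 CPM and the blood libraries at 2.33, 0.702 and 1.11 CPM, overlapping on both sides. With both genotypes the difference was 1.01 (SE 0.66, adjusted p 0.378).

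Among the HSP90 genes, Hsp90aa1 was at 125, 27.2 and 148 CPM in WT lung and at 56.1, 34.7 and 57.4 CPM in WT blood at 12 hours. Libraries 1a and 2 of the lung were thus above all of the blood and library 1b below all of it, and the difference was 0.99 (SE 0.44, adjusted p 0.288 by edgeR). Labelled KO lung, at 41.9, 43.2 and 51.7 CPM, and blood, at 61.3, 45.4 and 49.3 CPM, overlapped. Hsp90ab1, Hspa8, Dnajb1, Hspa1b and Hspe1 had fitted differences between -0.73 and 0.75 in both genotypes at this time.

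Of the markers of other cells, those of lung structure stood higher in the lung libraries at 12 hours, and single monocyte and macrophage markers in part. Over 18 lung structural markers (surfactant, epithelial, endothelial and fibroblast genes) the summed level was 73.5 to 401 CPM in lung at 12 hours and 14.6 to 31.5 CPM in blood, with every marker detected in some library, and with both genotypes 18 of 18 were above 0 and 12 were called higher. Of the monocyte and macrophage markers 9 of 14 were above 0 with both genotypes (median 0.68) and 9 of 13 in the labelled KO (median 1.69), Csf1r being called higher at 346 ± 204 against 134 ± 47.8 CPM (adjusted p 0.0487 by edgeR, n = 6) and Chil3 lower at 4201 ± 3366 against 21151 ± 13681 CPM (adjusted p 0.0295), while their summed level was 1558 to 9511 CPM in lung and 4746 to 46776 CPM in blood. The erythroid markers (5 of 6 below 0) and platelet markers (4 of 6 below 0) did not share that direction, and the B cell markers were below 0 in WT (7 of 7) and above 0 in the labelled KO (6 of 6). Of the T and NK cell markers 4 of 6 were above 0 with both genotypes and 2 of 4 in each genotype. The neutrophil markers were below 0 for 9 of 12 with both genotypes (median -0.70) and for 10 of 12 in each genotype. With both genotypes, Mmp8 and Ngp were called lower by edgeR. Summed immediate early genes were at 10158 to 66095 CPM in lung and 6435 to 15451 CPM in blood at 12 hours. The part of these in the Hspa1a values was not tested. In bulk samples, a different share of cells and a different RNA level per cell cannot be told apart.

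The fit without the labelled KO lung libraries that stood apart leaves library 1b alone in that arm and assumes that it varies like the other groups. It gave Hspa1a an adjusted p of 0.995 by edgeR in the labelled KO, and with both genotypes the difference was 1.03 (SE 0.53, adjusted p 0.337). In the labelled KO, Hsph1 was then at 2.28 (adjusted p 0.438), Hspe1 at -1.58 (adjusted p 0.524), Dnajb1 at -1.26 (adjusted p 0.430) and Hspd1 at -1.08 (adjusted p 0.443), and with both genotypes Hsph1 was at 0.91 (adjusted p 0.498) and Hspd1 at -0.72 (adjusted p 0.287). Leaving out library 2 of the WT lung took the WT value to 0.77 and the value over both genotypes to 0.92 (adjusted p 0.180).

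**Figure D2:**
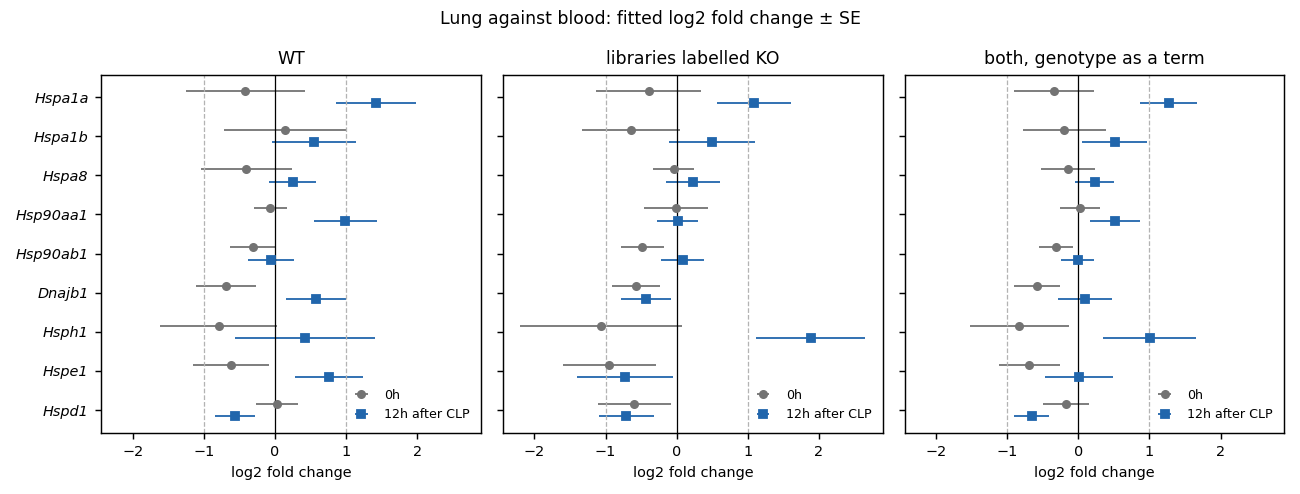
Fitted log2 fold change of lung against blood with its SE, for the 9 chaperone genes at baseline (grey circles) and at 12 hours after CLP (blue squares), in WT, in libraries labelled KO and in both with genotype as a term; dashed lines mark an absolute value of 1. Hspa1a lies at 1.42, 1.09 and 1.27 at 12 hours and between -0.42 and -0.34 at baseline, with all libraries in the fit; without the labelled KO lung libraries that stood apart the 1.09 becomes -0.0099.

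At the baseline no member differed between lung and blood neutrophils by the test. Hspa1a was at 3.64, 3.15 and 18.5 CPM in WT lung and 20.2, 2.62 and 10.1 CPM in WT blood, and at 4.63, 10.3 and 12.6 CPM in labelled KO lung and 8.20, 3.17 and 25.4 CPM in its blood. The widest spread of this gene was within the baseline groups, and every lung range overlapped the blood range. Hspa1b showed the same spread, at 7.16, 5.06 and 28.8 CPM in WT lung against 20.3, 1.54 and 15.1 CPM in WT blood, and at 7.04, 11.9 and 20.6 CPM in labelled KO lung against 14.8, 6.06 and 41.0 CPM in its blood.

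None of the 9 members was called at baseline by edgeR or DESeq2 in either genotype or in both, and none had an unadjusted p below 0.05. The background was low as well, with 0.0% of 15967 genes called by edgeR in WT, 0.0% of 19000 in the labelled KO and 0.0038% of 26293 with both genotypes. DESeq2 called 0.317% of 13899, 0.639% of 17843 and 1.31% of 15195 genes, and an unadjusted p below 0.05 by edgeR was reached by 2.54%, 2.91% and 3.34% of genes. Fitted values below 0 were found for 7 members in WT (57.5% of all genes), for all 9 in the labelled KO (48.0%) and for 8 with both genotypes (56.4%). Their medians were -0.40, -0.57 and -0.32, against -0.08, 0.03 and -0.08 over all genes. Platelet markers were below 0 in the same comparisons (6 of 6 in each, medians -1.95, -4.53 and -3.19), with a summed level of 34.4 to 51.0 CPM in lung and 43.3 to 739 CPM in blood at baseline, as were the erythroid markers (6 of 6 in each). Lung structural markers were above 0 (12, 17 and 18 of 18), at 75.5 to 1429 CPM in lung and 27.8 to 334 CPM in blood. The T and NK cell markers were below 0 as well (7 of 8 in WT, 8 of 8 in the labelled KO and 8 of 8 with both), as were the B cell markers in the labelled KO and with both (7 of 7 in each) though 5 of 7 were above 0 in WT, and the monocyte and macrophage markers (9 of 12, 13 of 14 and 10 of 14). None of these markers was called by edgeR, while DESeq2 called 2, 4 and 4 of the 6 platelet markers and 1, 6 and 4 of the 18 lung structural markers. DESeq2 also called 1, 2 and 2 of the monocyte and macrophage markers and 0, 1 and 2 of the erythroid markers. The part of all these markers in the members' values was not tested. A value past 1 was reached by Hsph1 alone, in the labelled KO, at -1.06 (SE 1.13, adjusted p 1.00 by edgeR). It rested on library 2 of the labelled KO blood, the library with the T and NK cell markers, at 9.04 CPM against 0.336 and 2.18 CPM in libraries 1a and 1b, and without it the value was 0.46. Without the labelled KO lung library that stood apart at baseline, no member was called either, and Hsph1 in the labelled KO was at -0.56.

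Between baseline and 12 hours after CLP, blood neutrophils had less Hspa1a on average in both genotypes, again short of the main threshold. In WT blood Hspa1a went from 20.2, 2.62 and 10.1 CPM to 1.46, 1.91 and 3.20 CPM, or 10.97 ± 8.84 to 2.19 ± 0.904 CPM (mean ± SD, n = 3). In labelled KO blood it went from 8.20, 3.17 and 25.4 CPM to 3.78, 3.22 and 2.71 CPM, or 12.2 ± 11.6 to 3.24 ± 0.534 CPM. At 12 hours the 6 blood libraries lay between 1.46 and 3.78 CPM, while at baseline libraries 1b already lay at 2.62 and 3.17 CPM, inside that range. The fitted difference was -2.47 in WT (SE 0.69, adjusted p 0.0527 by edgeR), which is 5.55-fold, and -2.06 in the labelled KO (SE 0.68, adjusted p 0.0947). DESeq2 called both, at -2.50 (adjusted p 0.00546) and -1.99 (adjusted p 0.0393).

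In a fit of both genotypes with genotype as a term, added after the data were seen, Hspa1a in blood was called lower at 12 hours (-2.18, SE 0.55, adjusted p 0.0144 by edgeR). No library was left out of that fit. In the fits within a genotype, single libraries carried a part of the difference. In the labelled KO the value without baseline library 2 was -0.94 (adjusted p 0.336), and leaving out each library of the WT comparison in turn gave -1.72 to -2.91 with adjusted p from 0.0085 to 0.452.

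Markers of other cells moved with time in blood as well. The summed level of 6 platelet markers was 65.6 to 186 CPM at baseline and 21.7 to 55.6 CPM at 12 hours in WT, and 43.3 to 739 CPM and 14.3 to 81.3 CPM in the labelled KO, with 6 of 6 below 0 in each and 3 called lower in WT. The 7 B cell markers summed to 267 to 1210 CPM and 41.9 to 231 CPM in WT, where 5 of 7 were below 0 and 1 was called lower, and to 320 to 1349 CPM and 37.5 to 136 CPM in the labelled KO, where 7 of 7 were below 0 and 3 were called lower. Of the T and NK cell markers tested, 5 of 5 were below 0 in WT and 8 of 8 in the labelled KO, where 2 were called lower. Of the lung structural markers tested, 11 of 12 were below 0 in WT, with 1 called lower, and 5 of 7 in the labelled KO. The monocyte and macrophage markers summed to 495 to 2011 CPM at baseline and 15982 to 46776 CPM at 12 hours in WT, and to 683 to 4386 CPM and 4746 to 20378 CPM in the labelled KO, while 6 of 12 and 11 of 13 single markers were below 0. Of these, 2 were called higher and 3 lower in WT, and 0 higher and 5 lower in the labelled KO. The erythroid markers were below 0 in both genotypes (6 of 6 in each, with 1 called lower in the labelled KO). Of the 12 neutrophil markers, 10 were above 0 in each genotype, with 6 called higher and 1 lower in WT and 4 called higher and 1 lower in the labelled KO. Every marker of these lists was detected in some library, and their part in the Hspa1a values was not tested.

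Most members had a fitted value below 0 in blood over time. The count was 8 of 9 in WT (55.4% of all genes, median -0.76 against -0.15) and 8 of 9 in the labelled KO (55.3%, median -0.56 against -0.14). None was called by edgeR, where 13.5% of 14625 genes were called in WT and 8.75% of 14156 in the labelled KO, and DESeq2 called 1 member in each, Hspa1a, where it called 22.8% and 12.3% of genes. An unadjusted p below 0.05 was reached by 2 members in WT and 3 in the labelled KO, against 28.8% and 27.8% of genes. A share of 2 or 3 in 9 is near the background.

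Hspa1b in WT blood went from 20.3, 1.54 and 15.1 CPM to 2.39, 3.11 and 8.62 CPM, a difference of -1.54 (SE 0.82, adjusted p 0.262 by edgeR). In labelled KO blood it went from 14.8, 6.06 and 41.0 CPM to 9.63, 1.52 and 7.71 CPM, a difference of -1.91 (SE 0.76, adjusted p 0.150). Without the baseline library 2 that difference was -0.90 (adjusted p 0.454). With Hspa1a and Hspa1b summed, the differences were -1.91 in WT (adjusted p 0.125) and -1.96 in the labelled KO (adjusted p 0.0944), so the pair as a whole was not called.

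The HSP10 gene Hspe1 was at 4.53, 1.99 and 5.81 CPM in WT blood at baseline and at 2.10, 1.46 and 1.53 CPM at 12 hours, with 22 to 138 counts per library. Under TMM, library 1b of the baseline lay just under the highest 12-hour library, and the difference was -1.44 (SE 0.56, adjusted p 0.133 by edgeR). Its partner Hspd1 did not share that sign in WT blood, at 21.5, 7.14 and 18.5 CPM against 27.9, 16.01 and 22.3 CPM, with each library of 12 hours above the baseline library of its own number. In labelled KO blood Hspe1 went from 2.90, 2.54 and 7.89 CPM to 4.56, 1.70 and 1.21 CPM (-1.03, SE 0.70, adjusted p 0.377 by edgeR).

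Hsph1 had the largest fitted value of any member in a comparison of 2 groups, -2.90 in labelled KO blood (SE 1.13, adjusted p 0.143 by edgeR), from 0.336, 2.18 and 9.04 CPM to 0.642, 0.805 and 0.286 CPM. Without baseline library 2 it was -1.34 (adjusted p 0.502). In WT blood it was -1.05 (SE 0.65, adjusted p 0.333), from 2.25, 2.17 and 2.82 CPM to 2.33, 0.702 and 1.11 CPM.

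Library 2 of the labelled KO blood at baseline had the highest level of 5 members among all 24 libraries: Hspa1a at 25.4, Hspa1b at 41.0, Hsph1 at 9.04, Hspe1 at 7.89 and Hspd1 at 32.8 CPM. It also held 325 CPM of T and NK cell markers, and the part of that in its chaperone levels was not tested.

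Over the same time no member was called in lung neutrophils. In WT lung 9.02% of 14859 genes were called by edgeR and 17.6% of 13341 by DESeq2, and an unadjusted p below 0.05 was reached by 26.6% of genes and by none of the 9 members. Values below 0 were found for 6 of 9 members (48.9% of all genes), and the largest value was Hspa1b at -1.12 (SE 0.69, adjusted p 0.341 by edgeR), from 7.16, 5.06 and 28.8 CPM to 5.002, 3.45 and 11.4 CPM. Without baseline library 2 this value was 0.018. Hsp90aa1 had the highest value above 0, at 0.78, from 46.5, 49.1 and 61.1 CPM to 125, 27.2 and 148 CPM. Libraries 1a and 2 of the 12-hour lung stood above the 3 baseline libraries and library 1b below them, and Dnajb1 had the same layout, at 84.1, 55.5 and 103 CPM at baseline and 165, 39.2 and 197 CPM at 12 hours. In the labelled KO lung no gene was called by edgeR (0.0% of 17939) or DESeq2 (0.0% of 43050), 0.401% had an unadjusted p below 0.05, and members ran from -0.78 to 0.41. Hspe1 there was at 3.03, 2.01 and 1.87 CPM at baseline and at 1.54, 0.756 and 1.70 CPM at 12 hours, without overlap, as in 1.93% of genes in that direction (1.97% under RLE and 2.3% under TMM from genes with at least 10 counts in every library, scalings described at the end). Its fitted value was -0.78, and -1.66 without the libraries that stood apart (adjusted p 1.00 in both by edgeR).

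**Figure D3:**
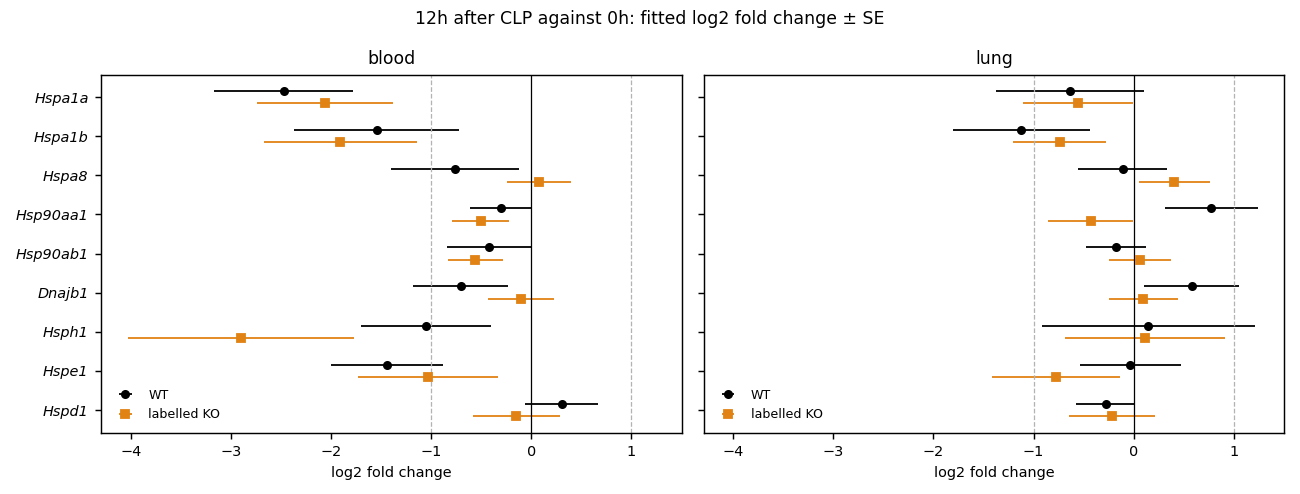
Fitted log2 fold change of 12 hours after CLP against baseline with its SE in blood (left) and lung (right), for WT (black circles) and libraries labelled KO (orange squares). In blood 8 of the 9 genes lie below 0 in each genotype, with Hspa1a at -2.47 and -2.06, and in lung the values run from -1.12 to 0.78.

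Whether the change after CLP differed between lung and blood was tested by the interaction of tissue and time, over 12 libraries per genotype. No gene was called in WT (0.0% of 23497) or in the labelled KO (0.0% of 22218) by edgeR, while 5.49% and 10.6% had an unadjusted p below 0.05. In WT the interaction was 1.75 for Hspa1a (SE 1.16), 1.28 for Hspe1 (SE 0.77) and 1.19 for Dnajb1 (SE 0.79), each at adjusted p 0.876. In the labelled KO it was 2.72 for Hsph1 (SE 1.37, adjusted p 0.509) and 1.37 for Hspa1a (SE 0.97, adjusted p 0.678). None of the 9 members had an unadjusted p below 0.05 and none was called by DESeq2 (0.657% of 14001 genes in WT and 1.73% of 14167 in the labelled KO) or without the labelled KO lung libraries that stood apart. Without those libraries the labelled KO interaction was 2.92 for Hsph1 and 0.60 for Hspa1a. RLE scaling in place of TMM moved the median of all genes by 0.17 in WT and 0.21 in the labelled KO here.

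Between genotypes no member was called in blood or lung at either time (0.0115% of 17356 genes in blood at baseline, and 0.0% of 18232, 12596 and 16764 genes in lung at baseline, blood at 12 hours and lung at 12 hours, by edgeR). DESeq2 called no member either (0.0118%, 0.0163%, 0.121% and 1.4% of genes in the same order), no member had an unadjusted p below 0.05 (0.709%, 1.86%, 4.01% and 8.29% of genes), and none was called without the labelled KO lung libraries that stood apart. Since Itgad was higher in the libraries labelled KO, these are differences between labels. Values past 1 were limited to Hsph1 in blood at 12 hours, at -1.18 (SE 0.67, adjusted p 0.962 by edgeR). Hsp90ab1 in lung at baseline was at 79.6, 83.9 and 76.7 CPM in the labelled KO and at 104, 103 and 126 CPM in WT, without overlap under TMM, as in 4.73% of genes in that direction, and overlapped under the 3 other scalings described at the end. Its fitted value was -0.46, and -0.39 without the library that stood apart. Hspe1 in lung at 12 hours was at 1.54, 0.756 and 1.70 CPM in the labelled KO and 3.52, 2.00 and 2.67 CPM in WT, as in 5.48% of genes, with a fitted value of -0.86, and of -1.52 without the libraries that stood apart, and the groups overlapped under library size alone. Hspa8 was highest in WT blood at baseline, where library 1a reached 1381 CPM beside 169 and 591 CPM in libraries 1b and 2, and the labelled KO blood was at 406, 270 and 397 CPM.

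The genes around the members were read through lists of the same pathway. Hsf1, the transcription factor that drives the heat shock response, was called lower at 12 hours in WT blood (7.27 ± 0.381 against 23.8 ± 11.7 CPM, log2 -1.86, SE 0.38, adjusted p 0.0193), in WT lung (6.10 ± 3.07 against 20.3 ± 6.18 CPM, -1.80, SE 0.40, adjusted p 0.0327) and in labelled KO blood (7.46 ± 3.84 against 21.3 ± 6.14 CPM, -1.73, SE 0.43, adjusted p 0.0437), all by edgeR with n = 3. It was the sole call among the 3 of 4 HSF genes tested, and it held its call in 8, 6 and 6 of 14 alternatives, with the same sign in all of them. Fkbp4, an HSP90 co-chaperone and heat shock target, was called lower in the same comparisons, at -2.75, -1.90 and -2.87, with WT blood at 3.34 ± 1.35 CPM at 12 hours against 20.0 ± 12.0 CPM at baseline. Whether these genes differed from the 9 members in their change was not tested, nor was the part of the platelet, B cell and other markers that moved in the same blood comparisons, as given above. The part of the markers that moved in WT lung, given below, was not tested either.

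Other chaperone families held calls in both directions with time in WT blood, where 7.75% of all genes were called higher and 5.75% lower. Of 8 HSP70 and HSP110 genes tested, 1 was called higher, Hspa13 (2.23), and of 17 J-domain genes 2 were called higher, Dnajb11 of the endoplasmic reticulum (1.56) and Dnajb12 (1.16). Of 16 HSP90 family and co-chaperone genes, Ppp5c (2.15) and Fkbp5, a glucocorticoid-induced co-chaperone (1.85), were called higher and Fkbp4 lower. Of 14 genes of the TRiC chaperonin and prefoldin, which fold actin and tubulin, Pfdn1 (2.79), Cct2 (1.75) and Cct6a (1.45) were called higher and none lower. St13, an HSP70 partner, was called lower (-1.13) and none of 10 mitochondrial chaperones and proteases was called in either direction. These calls held in 5 (St13) to 10 of 14 alternatives, Dnajb12 in 7. In WT lung Hspa13 (1.59), Dnajb5 (1.92) and Fkbp5 (2.32) were called higher, beside 5.24% of all genes called higher and 3.78% lower, and held in 5, 6 and 7 of 14 alternatives. Markers moved in WT lung over time as well. Of the B cell markers 7 of 7 were below 0 and 4 were called lower. Of the 12 neutrophil markers 10 were above 0, with 5 called higher and 1 lower. Of 11 monocyte and macrophage markers tested, 2 were called higher and 3 lower. The part of these markers was not tested. In labelled KO blood 0 genes of these families were called higher (3.75% of all genes, with 4.99% called lower), and none of the lists had a call in labelled KO lung.

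In lung against blood at 12 hours with both genotypes, 4 of 20 heat shock target genes were called higher and 1 lower, against 2.67% and 1.78% of all genes. Hspb1, a small heat shock protein, was at 3.33 ± 2.86 CPM in lung and 0.0638 ± 0.0729 CPM in blood (n = 6), Serpinh1, a collagen chaperone of fibroblasts, at 2.78 ± 2.59 CPM and 0.141 ± 0.220 CPM, and Cryab at 1.84 ± 2.12 CPM and 0.199 ± 0.157 CPM. Serpinh1 and Hspb1 are also expressed by structural cells of the lung. Of 19 alternatives, Hspb1 held its call in 18, Serpinh1 in 8 and Cryab in 5. The lung structural markers were higher in the same libraries, as given above, and their part in these values was not tested. Ier5, an immediate early gene and HSF1 cofactor, was the fourth, at 423 ± 224 against 130 ± 43.7 CPM (1.76, SE 0.41, adjusted p 0.0291 by edgeR). On the other side, Tcp1 (-1.12), Cct2 (-1.03) and Pfdn4 (-1.48) of TRiC and prefoldin were called lower, and 13 of 14 genes of that list were below 0. Tcp1 is also the heat shock target counted as lower. Ppp5c was called lower as well (-1.23), and these 4 genes held their calls in 6 to 9 of 20 alternatives, with the same sign in all of them. Without the labelled KO lung libraries that stood apart, where 0.215% of 24604 genes were called, 0 of the heat shock target, HSP90 and TRiC list genes were called. Hspd1, a folding gene of the mitochondria, had the same sign as these, and Hspa1a the other.

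Immediate early genes encode transcription factors and regulators and are switched on within minutes of many stimuli. At 12 hours, 23 of 23 were above 0 in lung against blood in WT, in the labelled KO and in both. With both genotypes 12 were called higher and none lower (median 2.29 against 0.26 over all genes), with Fosb at 4.84, Nr4a3 at 4.47, Fos at 2.75 and Btg2 at 2.29. Without the libraries that stood apart 23 of 23 were above 0 (median 2.11) and 1 was called, Fosb, at 4.43 (adjusted p 0.00313 by edgeR). The lung structural markers had a median of 3.79 in the same comparison. In blood between baseline and 12 hours, 6 of 22 were called lower and 1 higher in WT, and 4 lower and 0 higher in the labelled KO, with Fos at -3.34 and -2.02. The direction of Hspa1a was that of most of these genes in both contrasts. The 12-hour blood libraries are shared between the 2 contrasts, so these are not independent. In other contrasts it was not their direction. In lung against blood at baseline, 20 of 23 were above 0 in WT and 15 of 22 in the labelled KO. With both genotypes 18 of 23 were above 0. Hspa1a was at -0.42, -0.39 and -0.34 there. In lung over time 17 of 23 were above 0 in each genotype. Mean Hspa1a went from 8.44 to 5.79 CPM in WT lung and from 9.16 to 6.29 CPM in labelled KO lung.

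Within groups, most pairs of chaperones varied together, and how far depended on the scaling. Over the 24 libraries, as deviations of log2 CPM from the group mean, the median Pearson r over the 36 pairs of members was 0.64. It was highest for Hspa1a with Hspa1b, at 0.87, followed by Hsp90aa1 with Dnajb1, at 0.86, and Hspa8 with Hsp90ab1, at 0.85. Hsph1 stood apart, with -0.45 for Dnajb1. These points share libraries and depth, and Hspa1a and Hspa1b also share sequence. No median r for pairs of other genes was set beside this, so it is not shown to be particular to the members. By levels over the 24 libraries, 884 to 5708 of 27034 other genes had a higher r with Hspa1a than each member but Hspa1b had. With Hspd1, 1604 to 11658 other genes had a higher r than each member had. All 9 members were below the group mean in library 1b of WT blood at baseline (median -1.02) and at 12 hours, and all 9 were above it in library 2 of WT blood at baseline. These counts are under TMM, and with the RLE scaling described next they were 8 of 9 below (median -0.65), 7 of 9 below and 7 of 9 above. The share of all genes below or above the group mean in these libraries was not worked out.

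**Figure D4:**
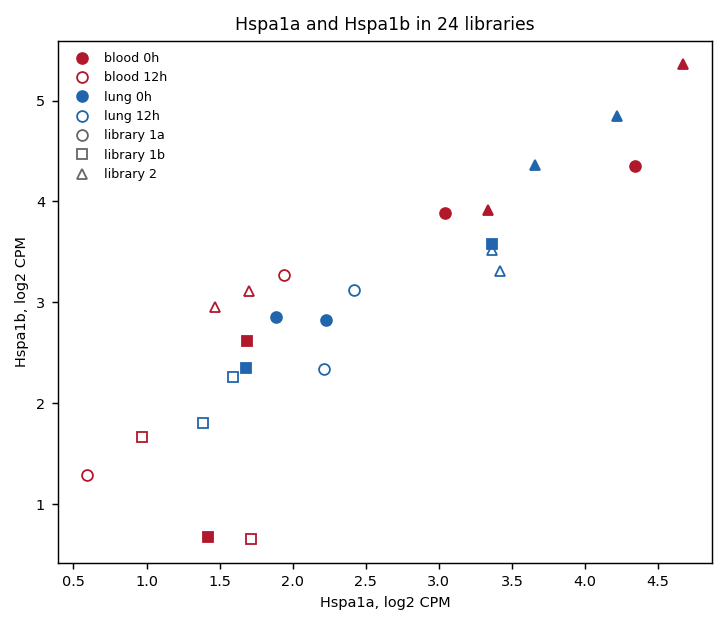
Log2 CPM of Hspa1b against that of Hspa1a in the 24 libraries; red is blood and blue lung, filled symbols are baseline and open ones 12 hours after CLP, and the shape gives the library number. The points run along a rising line (r = 0.87), with blood at 12 hours at the low end.

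TMM scaling gave libraries 1b factors of 0.888 to 1.92 and the other 16 libraries 0.557 to 1.16. With RLE factors (0.864 to 1.36 for libraries 1b), with TMM from the 8928 genes that had at least 10 counts in every library (0.874 to 1.25) or with library size alone, all chosen after the data were seen, the median r within groups was 0.39, 0.31 and 0.27. The pair Hspa1a and Hspa1b held 0.82, 0.81 and 0.81.

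The same choice decides whether the Hspa1a ranges overlap. Under TMM they overlapped in all 12 comparisons of 2 groups. Under each of the other scalings every 12-hour library of blood lay below every baseline library, in WT (19.6%, 22.0% and 26.7% of genes in that direction under RLE, TMM from frequent genes and library size) and in the labelled KO (18.4%, 20.8% and 28.0%). Every lung library at 12 hours also lay above every blood library, in WT (10.9%, 11.9% and 6.62% of genes) and in the labelled KO (15.3%, 17.8% and 16.6%). Under RLE, Hspa1a in WT blood was at 20.2, 3.71 and 9.23 CPM at baseline and 1.21, 2.02 and 2.63 CPM at 12 hours, and in labelled KO blood at 7.72, 3.87 and 23.8 CPM and 3.14, 3.31 and 2.20 CPM. In blood over time the value that decides it is library 1b at baseline. Other members changed with the scaling as well. In WT blood Hspe1 and Hsph1 also lay lower at 12 hours without overlap under each of these scalings. In WT lung against blood at 12 hours Hspd1 lay lower (12.3%, 11.7% and 18.8% of genes) and Hspe1 higher under each of them. In labelled KO lung against blood at baseline Dnajb1 lay lower under each of them (3.45%, 3.38% and 6.23% of genes). Under library size alone 6 of 9 members lay lower at 12 hours in WT blood, 4 of 9 in labelled KO blood and 4 of 9 in WT lung, where 33.2% of genes did. Hspe1 was apart in labelled KO lung over time under TMM, RLE and TMM from frequent genes and overlapped under library size.

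**Figure D5:**
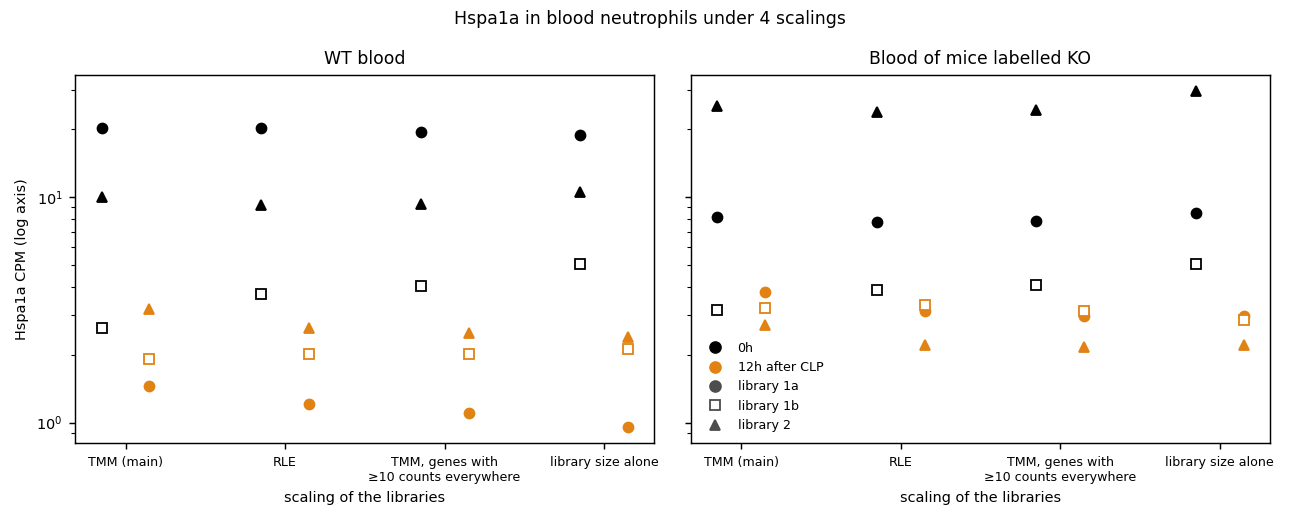
Hspa1a CPM (log axis) in blood neutrophils at baseline (black) and at 12 hours after CLP (orange) under 4 scalings, for WT (left) and libraries labelled KO (right); shapes give the library number. Baseline library 1b (open black square) lies within the 12-hour libraries under TMM and above them under the other 3 scalings.

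Genes whose levels followed those of the members over the 24 libraries were ranked by Pearson r of log2 CPM among 27034 other genes, as a description. These r are under TMM alone. For Hspa1a they included Tal1 (0.77, at 0.0583 to 3.85 CPM) and Gstp3 (0.76, at 0.602 to 8.74 CPM), each below the r of 0.87 with Hspa1b. For Hspa1b they were Gm43479 (0.78), Fam49a (0.78) and 4930563E22Rik (0.76), of which Gm43479 was at 0 to 1.13 CPM. For Hsp90ab1 they were Lmf2 (0.88), Nucb1 (0.88) and Rplp0 (0.85), and for Hspd1 Erh (0.91), Htatsf1 (0.90) and Cct4 (0.89).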

How the data were processed

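RNA of sorted neutrophils was made into SMART-Seq v4 and Nextera XT libraries. The authors trimmed reads with Trimmomatic (0.36), mapped them with STAR (2.5.2b) to GRCm38, names and versions being from their processing notes, and deposited raw counts per gene in 24 files. All 49315 genes had an identifier, 48970 of which matched a symbol. The files of each sample 1 differed by more than sampling noise (chi-square per degree of freedom 63.5 to 328) and were used as separate libraries, as the study counts triplicates.

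Counts were tested in edgeR 4.0.16 (R 4.3.3; TMM, filterByExpr, quasi-likelihood F test, two-sided, Benjamini-Hochberg over all genes tested) between the groups of each comparison, with DESeq2 1.42.0 as an alternative. The SE is the absolute log2 fold change divided by the square root of F. CPM are on TMM sizes over 24 libraries, and log2 CPM use a prior count of 1. Of 16 comparisons, 2 were interactions. An exact permutation test of 3 against 3 libraries cannot go below p = 0.1 and was not used. The procedure was tested on simulated data.

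The members, lists and tests were chosen with earlier results of these data known. All 9 members have their CPM. Fold changes are given for members that edgeR or DESeq2 called or whose absolute edgeR log2 value was over 1, and from the other lists at most 4 called genes per comparison, by smallest p. Values of other members (Hspd1, Hsp90aa1, Hsp90ab1 and Dnajb1) and ranges that do not overlap were picked after they were seen. Library numbers are shared between groups. Same-numbered libraries deviated together, with every correlation over 0.1, in WT lung against blood at 0h and at 12h, KO lung against blood at 12h, WT blood and KO lung over time, and KO against WT blood at 0h (0.109 to 0.750). A gene whose level followed that of Hspa1a is not reported here.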

Additional observations from a re-analysis of the deposited data

How the results depend on the processing

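The count of the 9 members called by edgeR was recomputed in 16 comparisons under 276 alternatives, of which 261 left it at its value of 0. In WT blood over time it was 1 with RLE normalization, with no filter on low counts, with DESeq2, with the files of sample 1 summed and with both genotypes in the fit (chosen after seeing the data), and 2 with at least 10 counts in every library (Hspa1a and Hspe1), and leaving out a library gave 0 to 4, the 4 being Dnajb1, Hspa1a, Hspa1b and Hspe1 without baseline library 1b. In labelled KO blood over time it was 2 with no filter (Hspa1a and Hspa1b) and 1 with DESeq2 and with both genotypes. In lung against blood at 12 hours with both genotypes it was 1 (Hspa1a) with at least 10 counts and with DESeq2, and 0 to 1 over the left-out libraries. Leaving out a library gave 0 to 1 in WT lung against blood at 12 hours and in WT lung over time, in each case Hsp90aa1 without the 12-hour lung library 1b. The cause of these changes was not tested.

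With the replicate block no member was called in any comparison, Hspa1a being at -2.16 (adjusted p 0.0668) in WT blood, -1.65 (adjusted p 0.159) in labelled KO blood and 1.11 (adjusted p 0.0632) in lung against blood at 12 hours by edgeR. In the 6 comparisons of groups not listed under the processing, libraries 1b and 2 deviated together by number (correlations of 0.243 to 0.750). Libraries 1a did not, at -0.185 to 0.0819, so the numbers paired the libraries there only in part. Signs turned for Hsph1 in labelled KO lung against blood at baseline (-1.67 to 0.46 over the left-out libraries, 0.46 without blood library 2), Hspa1a in labelled KO lung against blood at 12 hours (-0.0099 without the labelled KO lung libraries that stood apart) and Hspa1b in WT lung over time (-1.91 to 0.018, 0.018 without baseline library 2), and 344 of 364 recomputed member values kept sign and side of the threshold. The median correlation within groups, 0.64 with TMM, was 0.39, 0.31 and 0.27 under the scalings chosen after seeing the data. Counts per library were lowest for Hsph1 (4 to 244), Hspe1 (11 to 213), Hspa1b (17 to 1106) and Hspa1a (25 to 685).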
